A study of Mus musculus with 14 samples.

Results

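Semaphorins, plexins and neuropilins form a family of guidance ligands and their receptors, and their transcripts were compared between 2 sorted cell fractions of embryonic mouse skin epithelium. The members were every protein-coding gene of the count table whose symbol starts with Sema and a digit or with Plxn, together with Nrp1 and Nrp2. The rule gave 31 of the 26252 genes listed, namely 20 semaphorins, 9 plexins and 2 neuropilins. The source was the epithelium of E14.5 dorsal skin from wild-type embryos of the C57BL/6JOlaHsd strain. At this age hair placodes, the epithelial thickenings that begin hair follicles, are present. After enzymatic removal of the mesenchyme, live single cells from pools of 3 to 4 littermates were sorted by the adhesion molecule MAdCAM-1, the positive fraction being called placode-enriched and the negative fraction IFE (interfollicular epithelium). The 7 libraries of each fraction formed 7 pairs by their title codes. No embryo was treated and there was no mutant group. MAdCAM-1 enriches for placode cells and does not purify them, so each library is a mixture.

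Semaphorins are secreted or membrane-bound ligands that share a sema domain. They signal through plexins, transmembrane receptors whose cytoplasmic part acts on small GTPases and through them on the cytoskeleton and on integrin adhesion. Most secreted class 3 semaphorins need a neuropilin, a co-receptor with a short cytoplasmic tail that binds the ligand and associates with an A-type plexin. Neuropilins also bind members of the VEGF family. In skin the family is best known for the guidance of sensory axons and blood vessels, and plexins of the B type also act between epithelial cells.

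Library totals were 23.8 to 49.5 M (mega counts), and the 31 members took 0.240 to 0.323% of the counts in the placode-enriched and 0.168 to 0.230% in the IFE libraries. Epithelial markers (Krt5, Krt14, Trp63, Epcam, Cdh1 and Krt15) summed to 5007 to 6422 CPM (counts scaled to a common library size) in the placode-enriched and 5872 to 7306 CPM in the IFE libraries. Their sum was lower in the placode-enriched library of every pair. Of these 6 markers, 3 were called higher (Krt14, Trp63 and Epcam) and 3 lower (Krt5, Cdh1 and Krt15). Markers of the hair placode summed to 1630 to 2127 CPM and 372 to 423 CPM in the same order, and all 10 of 10 were called higher. Markers of suprabasal epidermis went the other way, at 207 to 462 CPM against 2784 to 4373 CPM, with 7 of 7 tested called lower. Melanoblast markers summed to 8.31 to 14.6 CPM against 124 to 222 CPM, with 8 of 8 tested called lower. Structural RNA took 1.54 to 2.85% of counts in the placode-enriched and 1.58 to 2.96% in the IFE libraries.

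Of the 31 members, 27 passed the filter on low counts and were tested. Called higher in the placode-enriched fraction were 14 of these 27, or 51.9%, where 15.5% of all 15382 genes tested were called higher. Called lower were 5 of 27, or 18.5%, where the share among all genes was 15.6%, so the lower calls were near the background and the higher calls above it. A call means a Benjamini-Hochberg adjusted p under 0.05 in the quasi-likelihood test of edgeR, fitted with pairs as blocks and adjusted over all genes tested. The median log2 difference, placode-enriched minus IFE, was 0.42 over the members and -0.02 over all genes. In 13 of the 27 members, or 48.1%, the CPM of the 2 fractions did not overlap between any libraries, against 14.8% of all genes tested, and 12 of these 13 were among the higher genes. Of the 14 higher members, 13 were higher in all 7 pairs. Of the 5 lower members, 3 were lower in all 7 pairs. The calls divided by role: 11 of 17 semaphorins tested were higher and 1 lower, 1 of 8 plexins was higher and 4 lower, and both neuropilins were higher. Among the 4 lower plexins, the call of Plxnd1 was lost in 13 of 16 alternative fits and that of Plxna4 in 5 of 16.

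**Figure D1:**
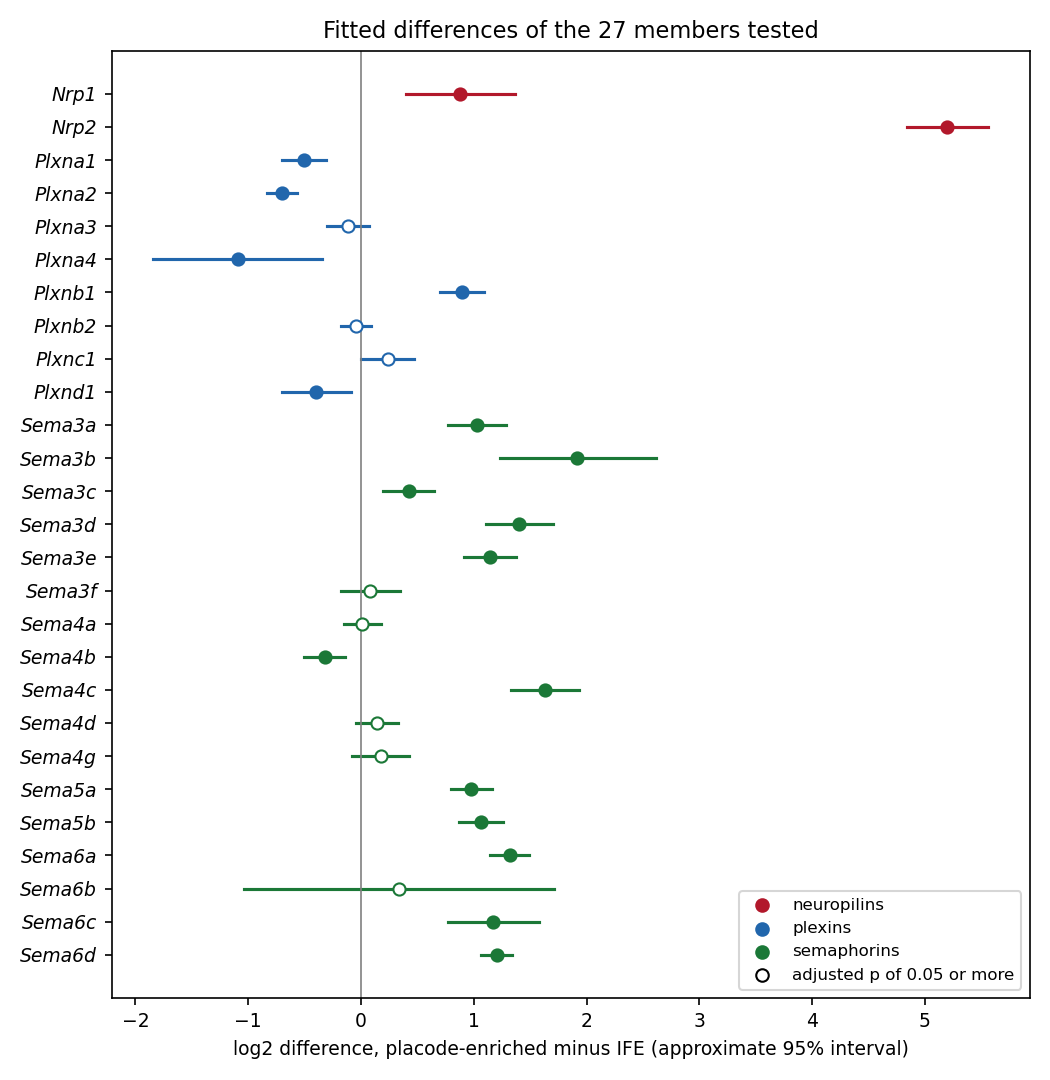
Fitted log2 difference (placode-enriched minus IFE) of the 27 members tested, with approximate 95% intervals and open circles where the adjusted p was 0.05 or more. Nrp2 stands at 5.20, apart from all the others, and Plxna4 is the lowest at -1.09.

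In sorted pools, fewer cells of a type and less RNA per cell cannot be told apart. With pairs as blocks, the p-values refer to how far the difference between the fractions varied across the pairs, each from pooled littermates.

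Nrp2 (neuropilin 2, chromosome 1, 62703285 to 62818695, plus strand, GRCm38), a co-receptor best known for binding Sema3f and VEGF-C, showed the greatest difference of the 27 members tested. Its level lay between 95.9 and 141 CPM in the placode-enriched libraries, with a median of 106 CPM, and between 2.14 and 3.96 CPM in the IFE libraries, with a median of 3.34 CPM. Every placode-enriched library was far above every IFE library. The means were 118 ± 20.3 and 3.21 ± 0.746 CPM (SD, n = 7 each), a 36.7-fold difference, or 5.20 ± 0.17 (SE) on the log2 scale (edgeR, adjusted p = 1.36e-10). Within pairs the log2 difference ran from 4.68 in pair 6 to 6.00 in pair 5.

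Nrp1 (neuropilin 1, chromosome 8, 128358604 to 128503363, plus strand), the co-receptor of Sema3a and VEGF-A, was scarce in both fractions. Its level lay between 4.06 and 7.29 CPM in the placode-enriched libraries, with a median of 5.69 CPM, and between 1.89 and 4.54 CPM in the IFE libraries, with a median of 3.02 CPM. The fractions overlapped, and 6 of 7 pairs were higher in the placode-enriched library, pair 1 being the exception at -0.16. The fitted difference was 0.88 ± 0.22 (SE; 95% interval 0.40 to 1.36; edgeR, adjusted p = 0.00835). In the 4 pairs without the 27-7 codes alone it was 0.57 and no longer called (adjusted p = 0.204).

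Per kilobase of exon, which allows levels of different genes to be compared, Nrp2 stood at 9.95 ± 1.71 CPM per kilobase and Nrp1 at 0.597 ± 0.118 in the placode-enriched fraction. In the IFE fraction Nrp2 stood at 0.271 ± 0.063 and Nrp1 at 0.330 ± 0.0908. The order of the 2 genes thus differed between the fractions. In the placode-enriched libraries Nrp2 made up 93.2 to 95.4% of the neuropilin level, with a median of 94.2%. In the IFE libraries it made up 35.4 to 63.0%, with a median of 43.7%, so that neither neuropilin was ahead in every IFE library. With the length of the longest transcript in place of all exon bases, the ratio of Nrp2 to Nrp1 had medians of 10.6 and 0.509, against 16.1 and 0.776 with all exon bases.

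The promoter windows of both neuropilins are printed because they differ in the LEF/TCF motif, the element bound by the transcription factors of canonical Wnt signalling, which acts early in placode formation. The windows are from RefSeq (GRCm38.p6), 250 bases before to 50 after a transcription start, 5′ to 3′ on the strand of the gene, and cover chr1:62703067-62703366 (Nrp2), chr8:128358823-128359122 (Nrp1) and chr5:14025026-14025325 (Sema3e, the other member with a match), all on the plus strand. Capitals mark a match to CTTTGAA or CTTTGAT on either strand.
Nrp2: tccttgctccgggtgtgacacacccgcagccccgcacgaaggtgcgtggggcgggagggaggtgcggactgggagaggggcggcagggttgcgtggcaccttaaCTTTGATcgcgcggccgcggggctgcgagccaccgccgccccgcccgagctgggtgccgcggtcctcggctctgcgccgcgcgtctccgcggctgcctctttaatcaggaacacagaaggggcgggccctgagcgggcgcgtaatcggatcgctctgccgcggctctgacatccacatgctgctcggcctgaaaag
Nrp1: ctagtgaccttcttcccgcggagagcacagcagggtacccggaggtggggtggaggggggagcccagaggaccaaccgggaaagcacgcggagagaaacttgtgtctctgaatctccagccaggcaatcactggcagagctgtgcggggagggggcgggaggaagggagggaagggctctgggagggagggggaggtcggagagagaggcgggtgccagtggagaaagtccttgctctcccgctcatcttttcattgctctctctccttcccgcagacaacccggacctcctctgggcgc
Sema3e: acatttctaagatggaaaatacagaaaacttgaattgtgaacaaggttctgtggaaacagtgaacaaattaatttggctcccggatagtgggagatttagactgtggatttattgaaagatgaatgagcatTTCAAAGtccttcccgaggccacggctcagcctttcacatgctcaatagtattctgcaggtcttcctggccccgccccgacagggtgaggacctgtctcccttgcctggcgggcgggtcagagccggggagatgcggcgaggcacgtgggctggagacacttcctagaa

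The match in the Nrp2 window begins at position 105, 146 bases before the start, and that in the Sema3e window lies on the reverse strand, at position 132, 119 bases before the start. The Nrp1 window has no such letters. It lies wholly inside the gene as annotated (start 128358604), so bases before that start were not read. Windows of some other members, such as Sema3a, also lie inside the annotated gene. RefSeq windows were matched for 26 of the 31 members, 37 windows in all, and 2 of these 37 (5.41%) held the motif, against 8.65% of all 32851 windows, so the motif was no more frequent in the family. The GLI motif ACCACCCA was in 0 of 37 windows against 1.48%, the AP-1 motif TGANTCA in 3 (8.11%) against 7.81%, and the E2-box CAGGTG in 5 (13.5%) against 20.2%, each read on both strands. The windows differed in CpG content, with 37 CpG in that of Nrp2, 14 in that of Nrp1 and 11 in that of Sema3e, beside medians of 15 over the members and 7 over all windows. A match is a description of letters and no evidence of binding, and the part of the motif in the differences was not tested.

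**Figure D2:**
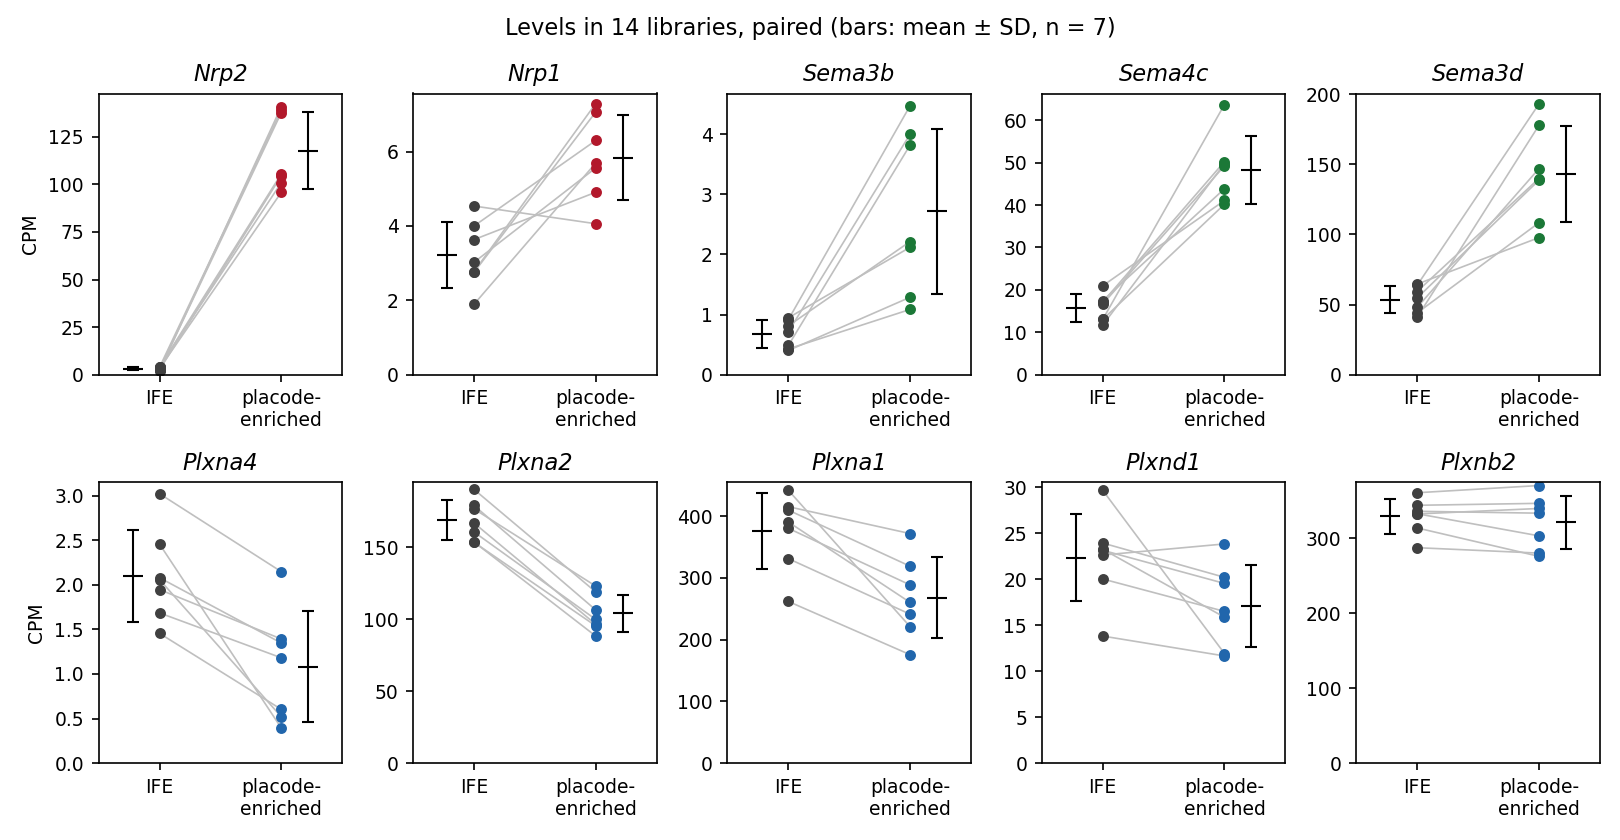
CPM of 10 members in the 14 libraries, with lines joining the libraries of a pair and bars for the mean ± SD (n = 7 each). The placode-enriched libraries of Nrp2 sit between 95.9 and 141 CPM and its IFE libraries between 2.14 and 3.96 CPM.

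The A-type plexins carry the signal of class 3 semaphorins bound to neuropilins and are bound directly by class 6 semaphorins. They were called lower in 3 of 4 cases and higher in 0, where 15.6% of all genes tested were called lower. Plxna2 (chromosome 1) lay between 88.3 and 123 CPM in the placode-enriched libraries, with a median of 99.8 CPM, and between 153 and 190 CPM in the IFE libraries, with a median of 167 CPM. It was the 1 lower member whose fractions did not overlap, and its difference was -0.70 ± 0.06 (SE; edgeR, adjusted p = 1.56e-06).

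Plxna1 lay between 176 and 372 CPM in the placode-enriched libraries (median 260 CPM) and between 262 and 442 CPM in the IFE libraries (median 391 CPM). The ranges overlapped, yet all 7 pairs were lower in the placode-enriched library, the least in pair 5 at -0.16 and the most in pair 3. The difference was -0.51 ± 0.09 (SE; edgeR, adjusted p = 0.000714). In the 3 pairs with 27-7 codes alone it was -0.36 (adjusted p = 0.0832).

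Plxna4, a receptor best known from sensory neurons, was close to the limit of detection, at 0.394 to 2.15 CPM (median 1.18 CPM) in the placode-enriched and 1.45 to 3.02 CPM (median 2.06 CPM) in the IFE libraries. The ranges overlapped and all 7 pairs were lower in the placode-enriched library. The difference was -1.09 ± 0.34 (SE; edgeR, adjusted p = 0.0278). Without replicate 1 the adjusted p was 0.0549, without replicate 2 it was 0.0711 and without replicate 4 it was 0.0886. Neither set of codes alone gave the call, with -0.49 (adjusted p = 0.453) for 27-7 and -1.60 (adjusted p = 0.0531) for the others. Schwann cell and neuron markers moved with it, summing to 3.12 to 6.05 CPM in the placode-enriched and 7.17 to 15.9 CPM in the IFE libraries, with 2 of 4 tested called lower. Their part in the result was not tested. Plxna3 was not called, at 81.7 ± 15.7 and 87.7 ± 9.91 CPM (difference -0.11 ± 0.09 SE, adjusted p = 0.36).

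The B-type plexins, receptors of class 4 semaphorins that signal to RhoA, held the plexin with the highest mean level per kilobase in both fractions. Plxnb2, at 276 to 370 CPM (median 333 CPM) in the placode-enriched and 287 to 361 CPM (median 333 CPM) in the IFE libraries, stood at 41.6 ± 4.61 and 42.7 ± 3.02 CPM per kilobase. In the IFE fraction Plxna1 was close, at 41.5 ± 6.73 CPM per kilobase, and above Plxnb2 in pair 3 (48.8 against 43.1) and pair 6 (45.3 against 43.1). The CPM ranges of Plxnb2 overlapped almost whole and its difference was -0.04 ± 0.06 (SE; 95% interval -0.17 to 0.09; edgeR, adjusted p = 0.678). Plxnb1, by contrast, was 1.86-fold higher in the placode-enriched fraction, at 286 ± 71.6 against 151 ± 18.2 CPM, with no overlap and 7 of 7 pairs higher (0.90 ± 0.09 SE, adjusted p = 4.75e-06). Plxnb3 had 11 counts in 1 placode-enriched library and none in the other 13 libraries.

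Of the remaining plexins, Plxnc1, the receptor of Sema7a, was not called (20.1 ± 2.64 against 17.2 ± 3.31 CPM, 0.24 ± 0.11 SE, adjusted p = 0.132). Plxnd1, the receptor that Sema3e can bind without a neuropilin, lay between 11.7 and 23.8 CPM (median 16.5 CPM) in the placode-enriched and 13.8 and 29.7 CPM (median 23.1 CPM) in the IFE libraries. The ranges overlapped widely and 6 of 7 pairs were lower. The difference was -0.40 ± 0.14 (SE; 95% interval -0.70 to -0.09; edgeR, adjusted p = 0.0479), and this call was lost in 13 of 16 alternatives (adjusted p 0.0318 to 0.281 over all of them), among them each of the fits without replicate 1, 2, 3, 5, 6 or 7. Plxnd1 is also expressed by endothelium, and endothelial markers summed to 1.33 to 3.34 CPM in the placode-enriched and 0.0428 to 1.53 CPM in the IFE libraries. That sum rested mainly on Pecam1 (1.83 against 0.493 CPM). The part of endothelium in the difference of Plxnd1 was not tested.

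Summed per kilobase, the A-type plexins stood at 46.1 ± 9.57 in the placode-enriched and 62.6 ± 8.35 CPM per kilobase in the IFE fraction and were lower in 7 of 7 pairs, while the B-type plexins stood at 71.4 ± 11.9 and 58.4 ± 4.75 and were higher in 7 of 7. The sum over all 9 plexins was 122 ± 21.7 and 126 ± 13.5, higher in 3 pairs and lower in 4. The plexin totals differed by less than the spread between libraries, and the make-up differed by more: the A-type share was 34.7 to 40.0% in the placode-enriched and 46.4 to 51.6% in the IFE libraries, with no overlap.

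**Figure D3:**
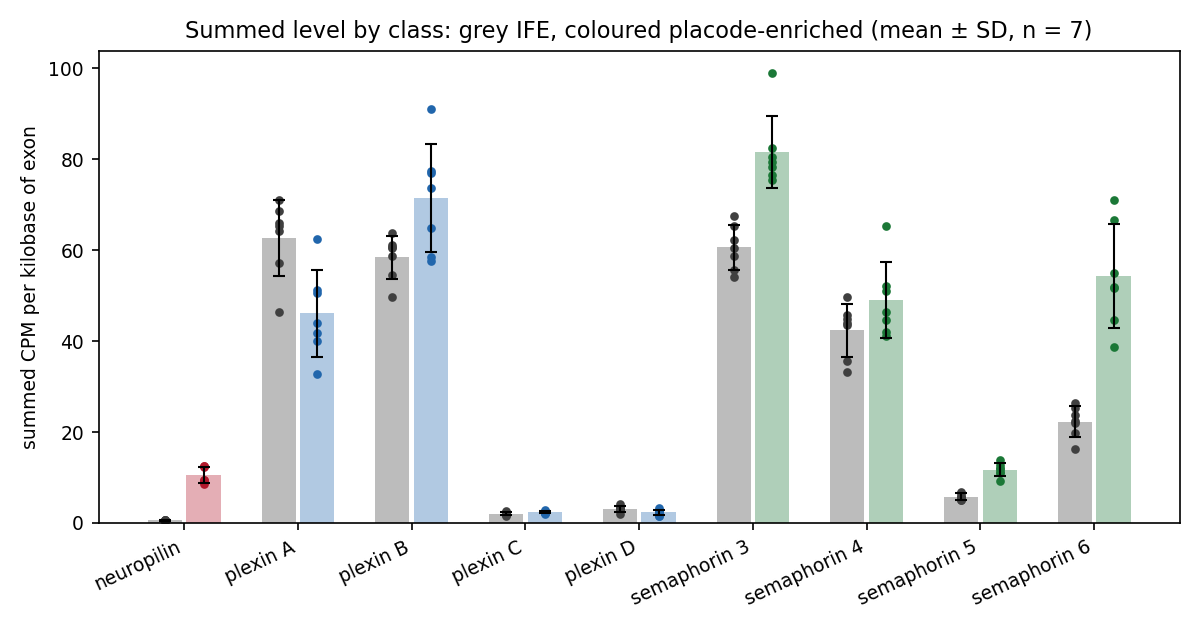
Summed CPM per kilobase of exon by class in each library (points), with the mean ± SD (n = 7 each). The A-type plexins are lower and the B-type plexins and the semaphorins of classes 3, 5 and 6 higher in the placode-enriched fraction in every pair.

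The secreted class 3 semaphorins were mostly higher in the placode-enriched fraction, with 5 of 6 tested called higher and 0 lower. Sema3d lay between 97.7 and 193 CPM (median 140 CPM) in the placode-enriched and 40.8 and 64.6 CPM (median 54.6 CPM) in the IFE libraries. No libraries of the 2 fractions overlapped. It was 2.64-fold higher (1.40 ± 0.14 SE; edgeR, adjusted p = 3.92e-06), with pair differences from 0.60 in pair 5 to 2.12 in pair 3.

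Sema3b had the second-largest fold difference of the members tested but very few counts, 27 to 155 per placode-enriched and 10 to 36 per IFE library. Its level was 1.09 to 4.47 CPM (median 2.21 CPM) against 0.402 to 0.945 CPM (median 0.714 CPM), without overlap. The difference was 1.92 ± 0.32 (SE; 95% interval 1.23 to 2.61; edgeR, adjusted p = 0.000422), or 3.78-fold.

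Sema3a, the classical repellent of sensory axons and the ligand of Nrp1, was at 97.6 ± 18.2 against 47.6 ± 8.39 CPM (1.03 ± 0.12 SE, adjusted p = 1.84e-05). Sema3e, the ligand of Plxnd1, was at 40.1 ± 6.57 against 18.1 ± 2.87 CPM (2.21-fold, adjusted p = 2.44e-06). Neither overlapped between fractions. Sema3c was at 26 ± 5.18 against 19.2 ± 2.94 CPM (0.42 ± 0.10 SE, adjusted p = 0.00714), higher in 7 of 7 pairs although its ranges overlapped. In the 3 pairs with 27-7 codes alone Sema3c was at 0.23 (adjusted p = 0.344).

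Sema3f, the main ligand of Nrp2, was the exception among the abundant class 3 ligands. It had the highest mean level per kilobase of all 31 members in both fractions, 49.4 ± 12.8 and 46 ± 6.83 CPM per kilobase. It lay between 206 and 392 CPM (median 226 CPM) in the placode-enriched and 191 and 290 CPM (median 231 CPM) in the IFE libraries, so the ranges overlapped, with 2 placode-enriched libraries (pairs 4 and 5) above every IFE library. The difference was 0.08 ± 0.12 (SE; 95% interval -0.18 to 0.34; edgeR, adjusted p = 0.671), and the pairs ran from -0.45 in pair 3 to 0.82 in pair 5. Without replicate 5 it was -0.043. Thus the transcript of Nrp2 differed 36.7-fold where that of its main ligand did not pass the test, with an interval that allows 0.34 at most on the log2 scale. As a share of the semaphorin level per kilobase, Sema3f made up 31.3 to 38.0% in the IFE and 21.9 to 30.3% in the placode-enriched libraries.

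Sema3g, a ligand best known from vessels, had 0 counts in all 7 placode-enriched libraries and 6 to 51 counts in each of the 7 IFE libraries, 186 in all. Against a floor of 3 counts over the whole placode-enriched group, the IFE level gave a ratio of 61.8. This ratio takes the IFE level as fixed and is not a lower bound, since the IFE libraries varied. Their level was 0.635 to 1.46 CPM in pairs 1 to 4. In pairs 5 to 7, whose title codes share their start, it was 0.165 to 0.528 CPM, without overlap. Sema3g did not pass the filter on low counts and was not tested in the main fit. The test of the difference between the sets of title codes did not include it either.

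**Figure D4:**
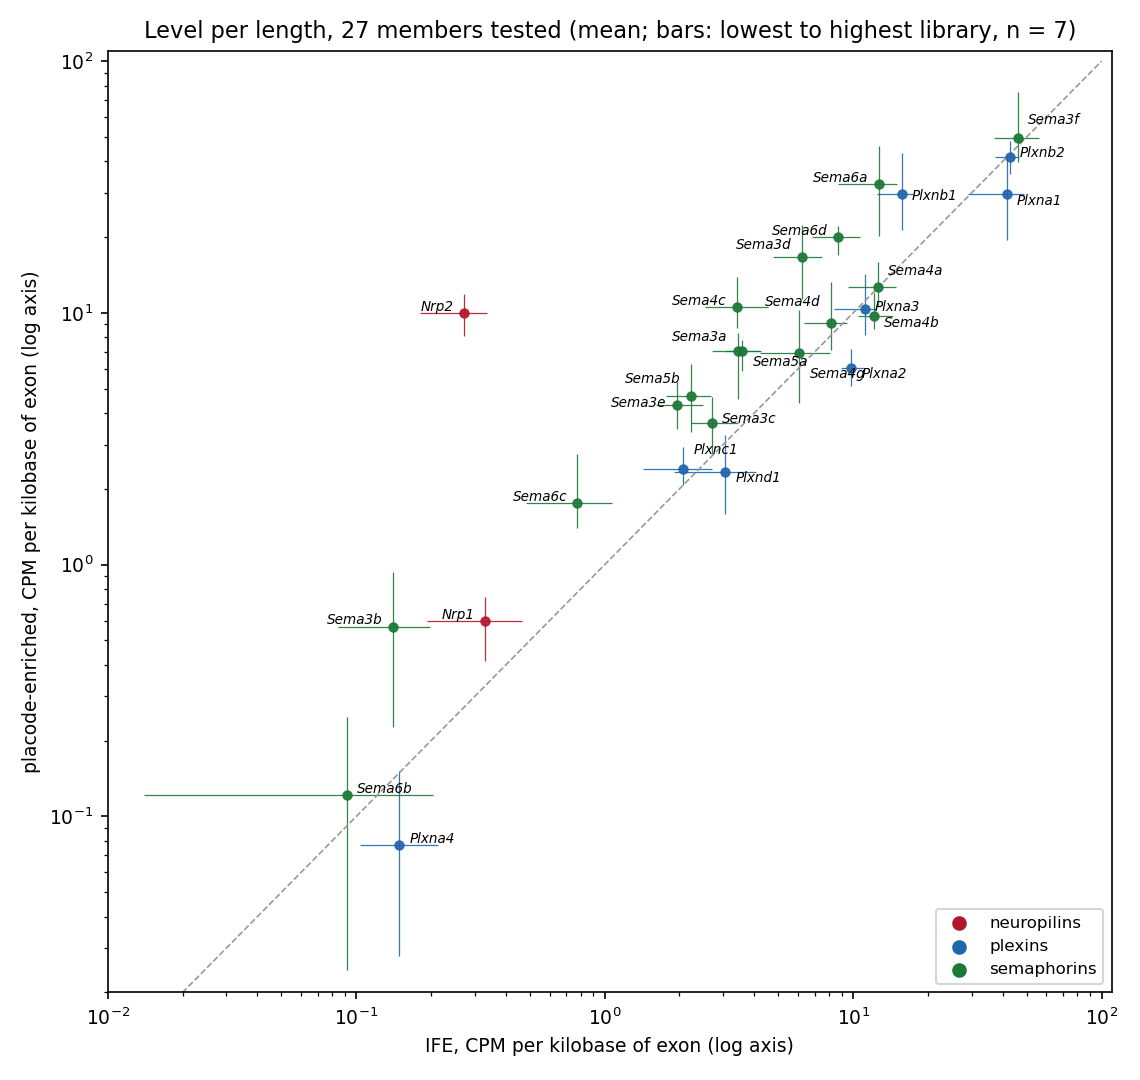
Mean level of the 27 members tested in CPM per kilobase of exon, IFE on the x axis and placode-enriched on the y axis (log axes), with bars from the lowest to the highest library. Sema3f and Plxnb2 have the highest means in both fractions, and Nrp2 lies furthest above the diagonal, at 9.95 against 0.271.

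The class 4 semaphorins, membrane-bound ligands of B-type plexins, were split. Of 5 tested, 1 was higher, 1 lower and 3 not called. Sema4c, a ligand of Plxnb2, lay between 40.2 and 63.7 CPM (median 49.3 CPM) in the placode-enriched and 11.7 and 21 CPM (median 16.6 CPM) in the IFE libraries. The fractions did not overlap. It was 3.09-fold higher (1.63 ± 0.14 SE; edgeR, adjusted p = 1.05e-06). A gene on the other strand, D430040D24Rik, shares 334 exon bases with Sema4c and was at 2.86 against 0.650 CPM, and the strand setting of the counts is not given.

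Sema4b was lower, at 54.7 ± 6.33 against 68.4 ± 8.42 CPM (-0.32 ± 0.08 SE, adjusted p = 0.00933, 6 of 7 pairs). In the 3 pairs with 27-7 codes alone it was at -0.23 (adjusted p = 0.319). Sema4a (68.3 ± 9.33 against 68 ± 10.5 CPM, adjusted p = 0.936), Sema4d, the classical Plxnb1 ligand (70.1 ± 16.4 against 62.6 ± 7.69 CPM, adjusted p = 0.246), and Sema4g (60.1 ± 18.1 against 52.5 ± 11.9 CPM, adjusted p = 0.305) were not called. Plxnb1 was thus higher while Sema4d did not pass the test. Sema4f had 0 to 19 counts per placode-enriched and 0 to 9 per IFE library and was not tested.

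Both class 5 semaphorins, transmembrane ligands with thrombospondin repeats, were higher in 7 of 7 pairs. Sema5a was at 131 ± 13.9 against 66.8 ± 8.44 CPM (0.98 ± 0.08 SE, adjusted p = 1.21e-06), and Sema5b at 33.2 ± 6.97 against 15.7 ± 2.57 CPM (1.07 ± 0.09 SE, adjusted p = 1.05e-06).

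Among the class 6 semaphorins, transmembrane ligands of A-type plexins, 3 of 4 were higher and 0 lower. Sema6a was at 284 ± 84 against 111 ± 20.2 CPM (1.32 ± 0.08 SE, adjusted p = 4.25e-08), and Sema6d at 211 ± 20.5 against 92 ± 12.5 CPM (1.20 ± 0.06 SE, adjusted p = 8.96e-09). Per kilobase Sema6a ranked 3 and Sema6d ranked 6 of the family in the placode-enriched fraction, against ranks 5 and 10 in the IFE fraction. Sema6c was less abundant and also called higher, at 10.4 ± 2.81 against 4.61 ± 1.15 CPM (1.17 ± 0.19 SE, adjusted p = 0.000319). In the 3 pairs with 27-7 codes alone it was at 1.05 (adjusted p = 0.0703). Sema6b was not called (0.482 against 0.364 CPM, 3 to 33 and 2 to 24 counts per library, adjusted p = 0.745). Sema7a had 0 counts in the placode-enriched libraries and 6 counts in 1 IFE library.

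The class 6 sum per kilobase was 54.2 ± 11.4 in the placode-enriched and 22.3 ± 3.47 CPM per kilobase in the IFE fraction, and the class 3 sum was 81.6 ± 7.97 and 60.6 ± 4.88. Classes 3, 5 and 6 were each higher in 7 of 7 pairs, and class 4 (48.9 ± 8.36 and 42.4 ± 5.85) in 6 of 7. Over all 20 semaphorins the sum was 197 ± 26.6 and 131 ± 13.4, higher in 7 of 7 pairs, where the plexin sum was not. Within it, class 6 made up 22.7 to 32.1% in the placode-enriched and 14.9 to 19.5% in the IFE libraries, without overlap. The summed transcripts of class 6 ligands were thus higher in the fraction in which the A-type plexin sum was lower. Plxna1 was the largest part of that plexin sum (29.6 against 41.5 CPM per kilobase), and Plxna3 was not called.

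Most members moved alike in all pairs, but the size varied between them. Pair 5 held the highest difference of the 7 pairs for 13 of 27 members, where it did so for 23.6% of all genes, and pair 3 held the lowest for 9, against 24.2%. For Nrp2, Plxnb1, Sema4c and Sema3f pair 5 was the highest, whereas for Sema3a, Sema3d and Sema3e it was the lowest. The summed fibroblast markers of the placode-enriched library were also lowest in pair 5 (1103 CPM) and highest in pair 3 (1895 CPM), the pair with the highest difference of Sema3a and Sema3d. That sum rested on Dcn (498 ± 79.2 CPM) and Postn (1042 ± 192 CPM) in the placode-enriched fraction. Of the other 6 markers, Col1a2 was also called higher, at 28.0 ± 3.03 against 11.8 ± 1.61 CPM, Col1a1 was called lower, at 0.524 against 4.2 CPM, and Col3a1 (3.04 CPM), Lum (1.38 CPM), Pdgfra (0.446 CPM) and Twist2 (0.00574 CPM) were low in the placode-enriched fraction. Its part in these differences was not tested.

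**Figure D5:**
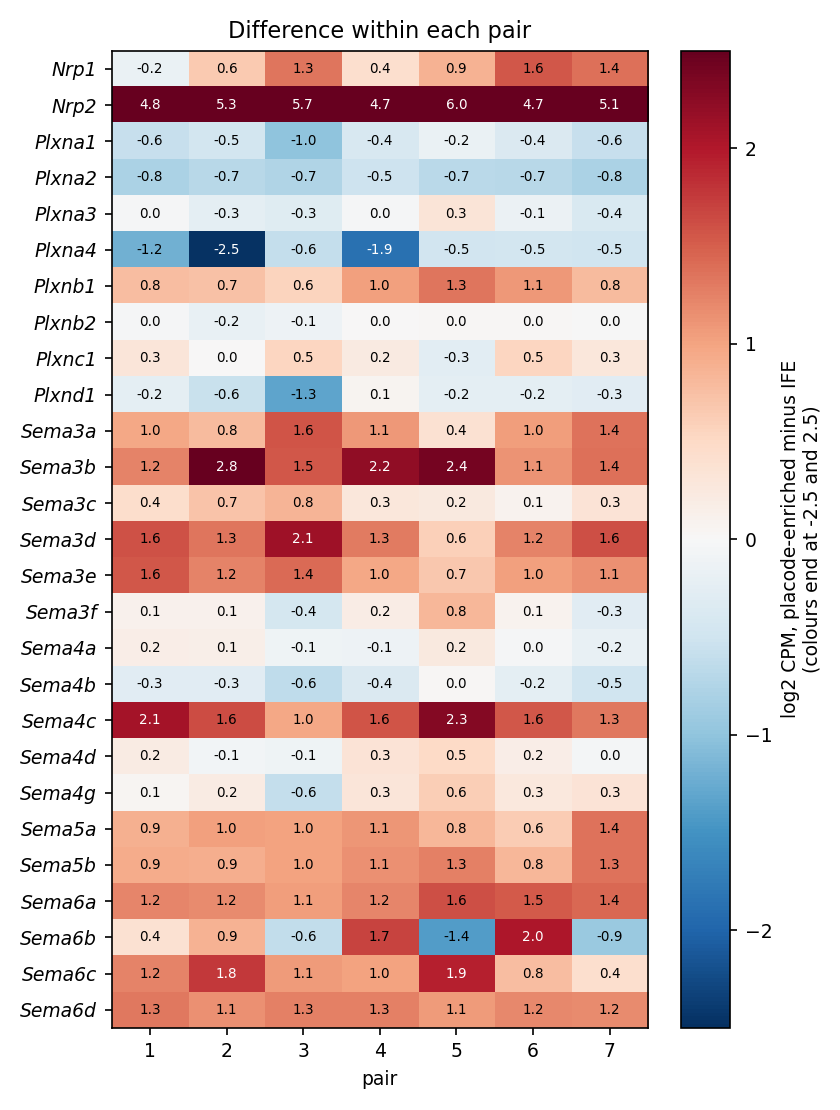
Difference in log2 CPM, placode-enriched minus IFE, in each of the 7 pairs (columns) for the members tested (rows). Nrp2 is high in every pair, from 4.68 to 6.00, while Sema3f runs from -0.45 in pair 3 to 0.82 in pair 5.

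The 3 pairs whose title codes begin with 27-7 were set against the other 4, since the labels do not say what the code stands for. The 27-7 pairs alone called 12 members higher and 1 lower, with 2331 genes called in all. The other pairs called 13 higher and 4 lower, with 3087 genes called in all. In that fit Plxna4 (edgeR, adjusted p = 0.0531) and Plxnd1 (edgeR, adjusted p = 0.110) lost their lower calls. Those 4 thus included a member that the main fit did not test. The fits of the code sets differ in their number of pairs, so their counts of calls cannot be compared directly. The test of the difference between the sets (edgeR, interaction of fraction and code set) called 0 of 15382 genes (0%), with 528 at an unadjusted p under 0.05. Of the 27 members tested, 1 was among these 528 of 15382 genes, Sema6a (edgeR, adjusted p = 0.902). With library size only as scaling, again 0 members were called.

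Other genes of the pathway were taken from 4 lists. Their counts of calls stand beside shares of 15.5% higher and 15.6% lower over all 15382 genes tested. Among 18 further co-receptors and receptors of semaphorins, 10 were tested, of which 2 were higher and 6 lower, with a median log2 difference of -0.88. Cntn2, a cell adhesion molecule of axons, was at 6.99 against 0.479 CPM (3.96 ± 0.35 SE, adjusted p = 1.64e-06), whereas Chl1, an adhesion molecule that binds Nrp1, was at 4.93 against 30.8 CPM (-2.73 ± 0.18 SE, adjusted p = 7.57e-08) and its relative Nrcam at 0.114 against 0.642 CPM (-2.89 ± 0.89 SE, adjusted p = 0.0221).

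Among 38 intracellular effectors, 37 were tested, with 11 higher, 8 lower and a median of 0.15. Mical2, of the MICAL family of oxidoreductases that take actin filaments apart, was at 77.2 ± 13 against 2.95 ± 0.751 CPM (4.72 ± 0.10 SE, adjusted p = 5.72e-12). Rnd1, a GTPase that binds plexins, was at 2.39 against 0.498 CPM (2.32 ± 0.35 SE, adjusted p = 0.000169), and the kinase Pak1 at 33.5 against 14.5 CPM (1.19 ± 0.13 SE, adjusted p = 9.37e-06). The difference of Mical2 was near that of Nrp2 in size.

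Of 5 VEGF-family ligands of neuropilins, 2 were higher and 1 lower, with a median of 0.18. Pgf, placental growth factor, was at 4.52 against 0.796 CPM (2.69 ± 0.28 SE, adjusted p = 6.44e-06) and Vegfa at 78.4 against 57.1 CPM (0.45 ± 0.08 SE, adjusted p = 0.000526). Vegfc, a ligand of Nrp2, was at 1.4 against 2.91 CPM (-1.05 ± 0.31 SE, adjusted p = 0.0201). Their receptor genes Kdr, Flt1 and Flt4 had 0 counts in 11, 12 and 10 of the 14 libraries and were not tested.

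Of 7 proteases that can cleave semaphorins or their partners, 2 were higher and 3 lower, with a median of -0.20. Pcsk6, a proprotein convertase, was at 14.1 against 52.7 CPM (-1.90 ± 0.08 SE, adjusted p = 2.01e-09), the membrane metalloprotease Mmp14 at 122 against 76.5 CPM (0.67 ± 0.10 SE, adjusted p = 0.000268) and Furin, which cleaves class 3 semaphorins, at 142 against 100 CPM (0.49 ± 0.10 SE, adjusted p = 0.00304).

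Markers of the other cell types that a sorted epithelial suspension could hold gave the following sums. Periderm markers were at 20.0 to 36.2 CPM in the placode-enriched and 98.6 to 115 CPM in the IFE libraries, with 5 of 5 tested lower. Merkel cell markers were at 13.2 to 19.6 against 2.22 to 5.34 CPM, with 3 of 3 tested higher. Fibroblast markers were at 1103 to 1895 against 918 to 1255 CPM, with 3 of 7 tested higher and 1 lower. Of the endothelial markers 1 of 7 was tested, Pecam1, at 1.83 against 0.493 CPM, and Cdh5 had 0 counts in 13 of 14 libraries. Immune markers were at 0 to 1.02 against 0.0428 to 1.17 CPM and none of the 6 found was tested. The part of these cells in the differences of the family was not tested.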

How the data were processed

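Libraries were prepared from total RNA of each sorted pool (Ovation SoLo RNA-seq), per the labels' protocols. The authors deposited raw read counts per Ensembl gene. Per the submitters' processing notes, the tools were STAR (version given as 1.5), HTSeq, Trimmomatic, bcl2fastq 2.17.1.14, MultiQC and FastQC, and the builds mm10 and GRCm38. Strand setting, duplicate handling and annotation release were not given in the sources used here, so overlapping genes on opposite strands (Plxna1, Plxna4, Plxnb1 and Sema4c among the members) may share reads, as may Nrp1, Plxnc1 and Sema4a with a gene on their own strand, and counting errors cover reads, not molecules.

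Symbols and exon lengths came from GENCODE M21, which matched 25949 of 26252 identifiers. Totals were 23.8 to 49.5 mega counts. Counts were tested with edgeR 4.0.16 (limma 3.58.1, R 4.3.3): filterByExpr with a minimum count of 10 (15382 genes kept, 10870 removed), TMM scaling, a robust quasi-likelihood F test of fraction with the pair as a block, and Benjamini-Hochberg adjustment at 0.05. The common BCV, the biological coefficient of variation, was 0.216. Log2 differences use a prior count of 0.125 and within-pair values a prior count of 2. Standard errors are approximate. CPM (counts per mega counts) use TMM-scaled totals. Tables and figures used Python 3.11.15, pandas 2.3.3, numpy 2.4.6 and matplotlib 3.10.9. The method was tested on simulated data of 14979 genes. It recovered 73.2% of genes given a log2 difference of 1 in size and 90.6% of those given 2. There were 7 false calls.

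The pairing comes from the design text, the shared title codes and the pooling of littermates. Libraries of 1 pair had a mean correlation of 0.093 (-0.317 to 0.395) in their deviations from the fraction means. The members, gene lists and code sets were chosen with earlier results of these data known. Values are given by library for both neuropilins, the 4 members called with the most positive and the 4 with the most negative difference, and the plexin and the semaphorin with the highest mean per kilobase. From each pathway list the 3 passing genes with the largest difference are named, and other list genes only beside a sum or count. Alternatives were DESeq2 1.42.0, limma-voom, no pair block, RLE size factors, library size only, no filter, at least 1 CPM in 7 libraries, each code set alone, each pair left out and the longest transcript as gene length. 0 columns were left unused.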

Additional observations from a re-analysis of the deposited data

Results flagged for a closer look

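In the groups of 7 libraries, the gap of a library to the nearest other was divided by the range of the group, in log2 CPM. A library was marked where this ratio exceeded Dixon's 95% critical value. Of 54 combinations of member and fraction looked at, 2 were marked, and chance marks about 1 in 20. Plxna3 in IFE replicate 1 was the lowest at 66.2 CPM, where the other 6 IFE libraries lay between 87.5 and 97.0 CPM. Sema6c in placode-enriched replicate 5 was the highest at 16.4 CPM, where the others lay between 8.32 and 11.01 CPM.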

How the results depend on the processing

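Of 431 recomputed member differences, 397 kept their direction and their side of the threshold, 23 kept the direction and lost the call, 2 gained one and 9 changed sign, all in members that were not called under either setting. With the 27-7 codes alone Plxnb2 (0.023) and Sema6b (-0.21) changed sign, and with the other codes alone Sema3f (-0.013) and Sema4g (-0.0095). With pairs left out in turn the log2 difference of Sema3f ran from -0.043 to 0.17, that of Sema4a from -0.031 to 0.060 and that of Sema6b from -0.0026 to 0.65. The gains were Sema4g without replicate 3 (0.30, adjusted p = 0.0101) and Plxnc1 without replicate 5 (0.31, adjusted p = 0.0332). Without the replicate block for the pairs, 14 members were higher, 4 lower and 4689 genes called in all, against 14, 5 and 4786 with it; the call lost was Plxnd1 (adjusted p = 0.0866). With pairs left out in turn, 14 to 15 members were higher, 3 to 4 lower, and 3953 to 5229 genes called in all; replicates 1 and 2 gave the 3. The 27-7 codes alone gave 1 lower member and 2331 genes called, and the other codes alone 3087 genes, with fewer samples in each fit. DESeq2 called 14 members higher and 5 lower. With no filter on low counts 14 were higher and 5 lower, although Plxnd1 lost its call (edgeR, adjusted p = 0.0514). Those 5 thus included a member that the filter removes and the main fit did not test. The median of all genes was -0.01 with RLE and 0.01 with library size only, against -0.02. Depth limits Plxna4, Sema3b and Sema6b, and no value can be given for Sema6b under the stricter filter.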
